A study of Homo sapiens with 4 samples.

Results

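The forkhead family without FOXM1 was examined in PC3 cells in which the orphan nuclear receptor COUP-TFII was targeted by siRNA. The members were 35 listed genes, each read from the probe sets that the array's annotation gives to that gene alone. That assignment uses no measured value, but the members and the gene lists below were chosen with earlier results of these data known. Of the 35 genes, 34 had such a probe set, among 19775 genes in all; FOXC1 was not analysed here. The 34 genes were read by 88 probe sets, with 13 genes on 1 probe set and 21 on several, up to 9. PC3 is an established human prostate cancer cell line with epithelial features. Cells grown in RPMI medium with fetal bovine serum received control siRNA or COUP-TFII siRNA, both at 40 nM, and RNA was taken at 48 h; each group held 2 arrays. All 4 arrays thus came from transfected cells of 1 line. The labels do not say that the 2 arrays of a group came from separate cultures, so the p-values rest on differences among these arrays that may be purely technical. How far the siRNA lowered its target was not analysed here.

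Forkhead factors share a winged-helix DNA-binding domain that recognises a short AT-rich site. The FOXA proteins are pioneer factors that open chromatin, FOXA1 in prostate and breast epithelium and FOXA2 in liver, lung and other tissues of endodermal origin. The FOXO proteins act downstream of insulin signalling: AKT phosphorylates them, proteins of the 14-3-3 family hold them in the cytoplasm, and unphosphorylated FOXO drives genes of cell cycle arrest, stress resistance and atrophy. FOXP and FOXK proteins are mainly repressors. An array reads messenger levels and not where a FOXO protein sits.

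The deposited values are probe set intensities on a linear scale, with array medians from 31.7 to 32.9 over 54675 probe sets. Replicate arrays correlated at r = 0.987 and 0.988 over log2 values, and arrays of different groups at 0.975 to 0.979, as descriptions over probe sets. For ACTB the 3'-end probe set divided by the 5'-end one, a sign of RNA length, was 1.52 and 1.83 with control siRNA and 1.42 and 1.46 with COUP-TFII siRNA, and its part in the results was not tested. The same ratio for GAPDH was 0.957 and 0.986 against 0.994 and 0.986. Of 5 epithelial markers 2 passed in limma as higher and 2 as lower, with log2 fold changes of the 5 from -0.30 to 0.16. All 5 lay above the median on all 4 arrays. Of 5 fibroblast markers 1 did, COL1A1, at 599 and 540.3 on the control siRNA arrays and 962 and 949.6 on the COUP-TFII siRNA arrays (limma adjusted p = 1.36e-04), and the list's summed intensity was 648 to 708 with control siRNA and 1028 to 1053 with COUP-TFII siRNA. Without COL1A1 the other 4 summed to 109 and 108 with control siRNA and to 91.8 and 78.6 with COUP-TFII siRNA. None of these 4 passed, and the median log2 fold change of the 5 was -0.17. Of 4 endothelial markers 1 lay above the median on all 4 arrays (summed intensity 188 in each control array, 219.7 to 282 with COUP-TFII siRNA). Of 4 leukocyte markers none lay there (65.4 to 76.2 and 66.4 to 76.7). No endothelial or leukocyte marker passed in limma.

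Forkhead messengers of PC3 cells lay on both sides of the array median. Of the 34 members, 15 lay above the array median on all 4 arrays, which is 44.1% against 59.2% of all genes (11699 of 19775). These were FOXA1, FOXD1, FOXJ2, FOXJ3, FOXK1, FOXK2, FOXL1, FOXN2, FOXN3, FOXO1, FOXO3, FOXO4, FOXP1, FOXP4 and FOXQ1. FOXA2 alone lay above the median on both control arrays and below it on both COUP-TFII siRNA arrays, a pattern that 175 genes showed (0.885%). FOXC2, FOXH1, FOXJ1, FOXN4 and FOXP2 crossed the median between arrays, with values from 16.2 to 53.9. The other 13 stayed below it on every array: FOXA3, FOXB1, FOXD2, FOXD3, FOXE1, FOXE3, FOXF1, FOXF2, FOXI1, FOXL2, FOXN1, FOXP3 and FOXS1, whose highest single value was 21.9. The median is a yardstick within an array, not a detection call, since the values carry none; an intensity also depends on the probes, so members are set against the median and not against each other.

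**Figure D1:**
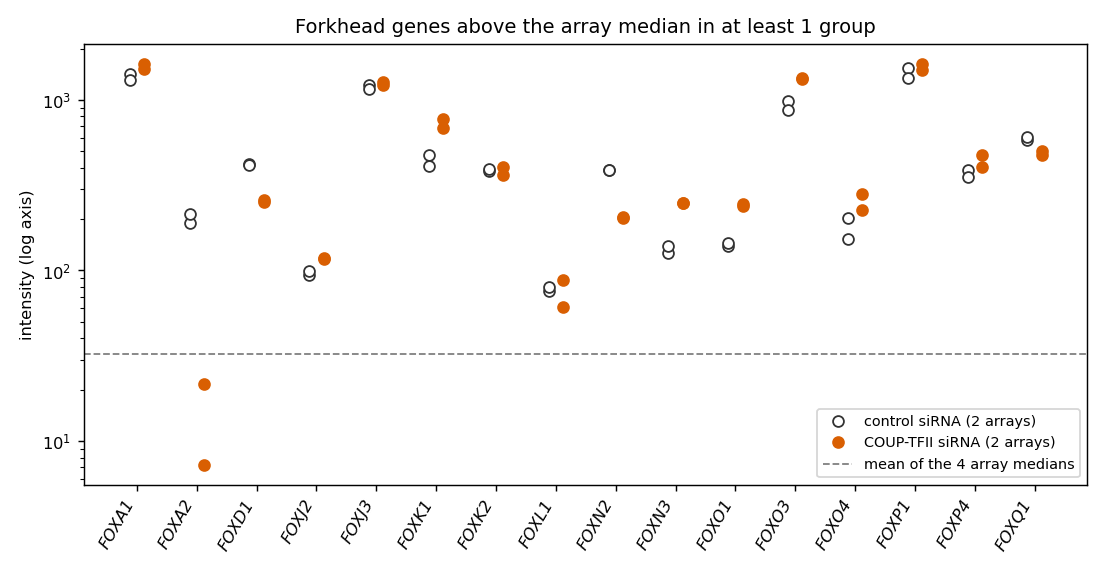
Intensity (log axis) on each array for the 16 forkhead genes above the array median in at least 1 group, with 2 arrays per group and the mean of the array medians as a dashed line. FOXA2 is the gene whose COUP-TFII siRNA arrays, at 21.6 and 7.27, lie below that line.

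With COUP-TFII siRNA, 8 of the 34 members passed the test, FOXK1, FOXN3, FOXO1 and FOXO3 in the higher direction and FOXA2, FOXD1, FOXN2 and FOXQ1 in the lower one. The test was limma on log2(intensity + 16) at a Benjamini-Hochberg adjusted p under 0.05 over all genes. The share, 23.5%, lay near the 23.1% of all genes that passed, with 4 higher (12.8% of all genes) and 4 lower (10.3% of all genes). With arrays centred on the median of 11 housekeeping genes, 10 members were higher and 3 lower, beside 6335 and 1130 of all genes, whose median rose to 0.24. The middle housekeeping gene was PGK1 on 3 arrays and TFRC on 1; PGK1 itself passed as lower without this centring (log2 fold change -0.26), and the median log2 fold change of the 11 was -0.05. In bulk RNA, fewer cells with a messenger and less of it per cell cannot be told apart. The median log2 fold change was 0.03 over the members and 0.01 over all genes. Of the 15 members above the median on all 4 arrays 7 passed, against 36.9% of such genes in all; the passing member outside that group was FOXA2. The 4 values did not overlap between groups for 14 members, 9 higher and 5 lower, which is 41.2% against 57.5% of all genes. An exact permutation test of 2 arrays against 2 cannot give a two-sided p below 0.333, so single values are tested through limma alone.

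**Figure D2:**
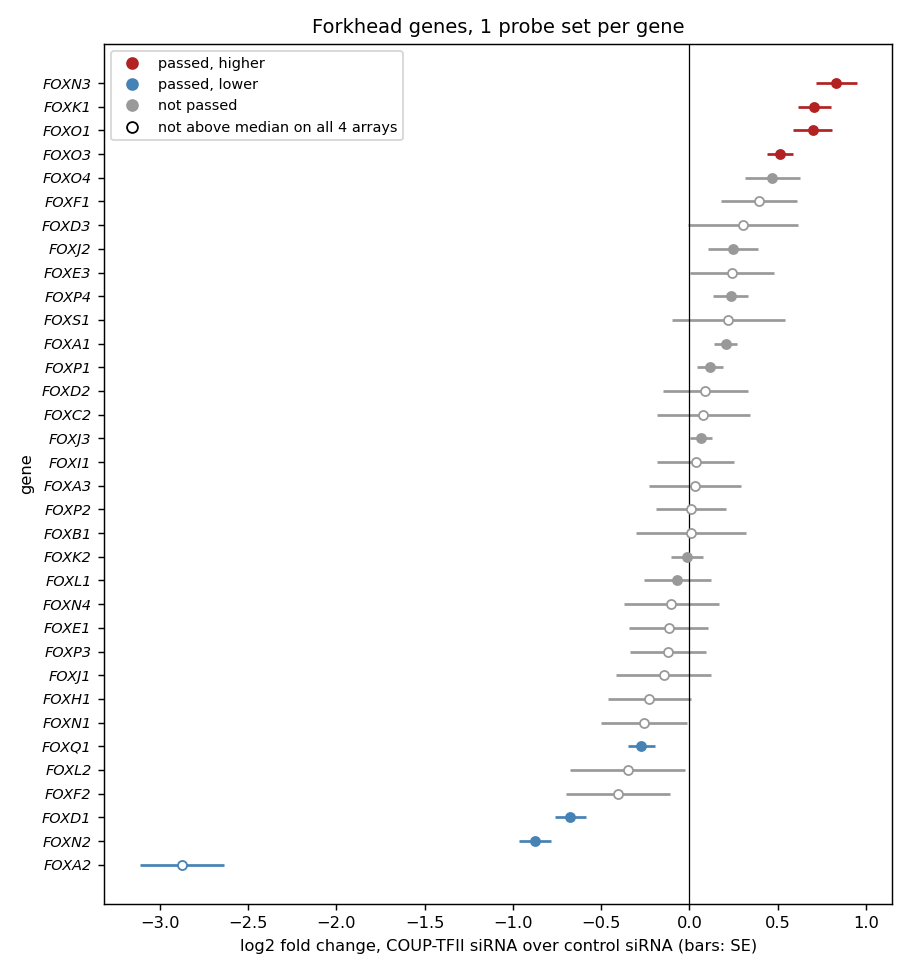
Log2 fold change of COUP-TFII siRNA over control siRNA for the 34 forkhead genes (points) with SE (bars), coloured by the limma call, with open points for genes not above the median on all 4 arrays. FOXA2 stands at -2.87, and the other 33 lie between -0.87 and 0.83.

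FOXA2, the pioneer factor of endodermal tissues, had the widest difference in the family. Its representative probe set read 189 and 213 on the control siRNA arrays and 21.6 and 7.27 on the COUP-TFII siRNA arrays. The means were 201 ± 17.6 with control siRNA and 14.4 ± 10.1 with COUP-TFII siRNA (SD, n = 2), from above the median to below it, with no overlap. FOXA2 fell (log2 fold change -2.87, SE 0.24, limma adjusted p = 4.67e-05), the 3rd largest fall among the 19775 genes at the pseudocount of 16 and with this probe set. The call held in all 14 alternatives, while its size ran from -3.88 with a pseudocount of 1 to -1.05 for the mean of its 3 probe sets. The other FOXA2 probe sets did not show it. One, built from the same transcript accession, lay below the median throughout, at 9.90 and 18.2 on the control siRNA arrays and 10.7 and 8.45 on the COUP-TFII siRNA arrays (limma adjusted p = 0.658). The other lay just above the median, at 39.4 and 46.0 on the control siRNA arrays and 34.7 and 45.5 on the COUP-TFII siRNA arrays (limma adjusted p = 0.902). The fall of FOXA2 thus rests on 1 of 3 probe sets. That probe set was chosen for its mean over all 4 arrays. It was brighter than the one just above the median with control siRNA (means 201 against 42.7). With COUP-TFII siRNA it was dimmer (14.4 against 40.1). The choice thus depended on the control arrays, and alternatives that reuse this probe set do not test it.

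FOXA1, the pioneer factor of prostate epithelium, lay far above the median on every array, at 1419 and 1301 on the control siRNA arrays and 1519 and 1624 on the COUP-TFII siRNA arrays. The COUP-TFII siRNA arrays were the higher ones, without overlap, and the difference narrowly missed the threshold (log2 fold change 0.21, SE 0.07, limma adjusted p = 0.0508). It passed in 5 of 14 alternatives, among them normalization by quantiles (adjusted p = 0.0488). FOXA3, the hepatic member, stayed below the median, between 6.15 and 18.3.

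The FOXO genes, effectors of insulin and stress signalling, lay above the median on all 4 arrays, and 2 of the 3 rose. FOXO1 read 140.1 and 145 on the control siRNA arrays and 244 and 239 on the COUP-TFII siRNA arrays. Both COUP-TFII siRNA arrays were above both controls, and FOXO1 rose (log2 fold change 0.70, SE 0.11, limma adjusted p = 0.00184), with a call that held in all 14 alternatives. A 2nd of its 3 probe sets also rose, from 129.8 and 132 to 211 and 220.3 (limma adjusted p = 0.00618). This 2nd probe set lost the call in 5 of 12 alternatives, and the remaining one lay below the median. FOXO3 read 991 and 869.8 on the control siRNA arrays and 1346 and 1318 on the COUP-TFII siRNA arrays. It rose (log2 fold change 0.51, SE 0.07, limma adjusted p = 9.82e-04), as did another of its 4 probe sets (log2 fold change 0.50, limma adjusted p = 0.017). That other probe set lost the call in 5 of 12 alternatives. With 1 prior variance for all genes the adjusted p of FOXO3 was 0.0686. FOXO4, read by a single probe set, stood at 204 and 154 on the control siRNA arrays and 226 and 281 on the COUP-TFII siRNA arrays. The groups did not overlap, but the arrays lay far apart within each group (SD 35.7 with control siRNA, 38.8 with COUP-TFII siRNA). FOXO4 did not pass (log2 fold change 0.47, SE 0.15, limma adjusted p = 0.0576). It passed in 3 of 14 alternatives, among them the replicate block (limma adjusted p = 0.0405). Without control replicate 2 the FOXO4 difference was 0.28 and without control replicate 1 it was 0.66.

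The 250 bases before the RefSeq start (GRCh38.p14) are shown for the FOXO genes, 2 that rose and 1 that did not pass, beside FOXD1, which fell. They are printed 5′ to 3′ on the gene's strand; capitals mark matches on either strand to AGGTCA, the half-site that COUP-TF receptors bind as direct repeats, to GTAAACA, a core forkhead site, and to GGGCGG, the GC box. FOXO1 is chr13:40666642-40666891 on the minus strand, FOXO3, at the first of its listed starts, chr6:108559575-108559824 on the plus strand, FOXO4 chrX:71095601-71095850 on the plus strand and FOXD1 chr5:73448778-73449027 on the minus strand.
FOXO1: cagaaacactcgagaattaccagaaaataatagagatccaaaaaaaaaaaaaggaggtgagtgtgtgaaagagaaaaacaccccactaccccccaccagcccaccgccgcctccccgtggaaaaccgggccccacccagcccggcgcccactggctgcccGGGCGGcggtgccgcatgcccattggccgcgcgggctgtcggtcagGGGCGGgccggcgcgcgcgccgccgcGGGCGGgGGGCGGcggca
FOXO3: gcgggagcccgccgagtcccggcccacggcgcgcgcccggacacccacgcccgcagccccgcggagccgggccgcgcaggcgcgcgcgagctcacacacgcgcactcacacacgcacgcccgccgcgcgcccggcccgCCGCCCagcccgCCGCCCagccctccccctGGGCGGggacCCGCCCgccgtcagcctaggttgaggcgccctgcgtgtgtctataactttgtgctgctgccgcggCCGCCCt
FOXO4: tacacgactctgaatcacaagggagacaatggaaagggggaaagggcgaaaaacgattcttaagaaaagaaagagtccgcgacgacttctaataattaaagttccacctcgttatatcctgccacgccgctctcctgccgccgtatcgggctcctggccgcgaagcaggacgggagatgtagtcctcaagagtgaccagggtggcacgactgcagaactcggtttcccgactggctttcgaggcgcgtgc
FOXD1: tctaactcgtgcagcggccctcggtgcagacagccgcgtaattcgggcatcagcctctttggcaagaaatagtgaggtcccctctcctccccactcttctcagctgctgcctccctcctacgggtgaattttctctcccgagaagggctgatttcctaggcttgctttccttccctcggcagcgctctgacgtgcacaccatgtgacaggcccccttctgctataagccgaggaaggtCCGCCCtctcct
The capitals in these windows are all GC boxes, 4 in FOXO1, 5 in FOXO3, none in FOXO4 and 1 in FOXD1. The later FOXO3 windows held 3, 1 and 0. Of other genes that rose, FOXK1 had 4 and FOXN3 had 1, while FOXP4 and FOXE1, which did not pass, had 4 each. Whether the number of GC boxes goes with the calls was not tested. Windows were found for 26 of the 35 members, 37 windows in all. FOXA2 and FOXN2, which fell, were among the 9 members without a window, so their upstream bases were not searched. Some members had several windows, so the shares below are of windows and not of members. AGGTCA was in 1 of the 37 (2.70%) against 12.1% of 35116 windows of the same length, GTAAACA in 1 (2.70%) against 2.98%, and the GC box in 25 (67.6%) against 42.6%. A match is a string of letters and not a bound site.

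FOXN2 and FOXN3, transcription factors of the checkpoint-suppressor class, moved in opposite directions. FOXN2 read 389 and 386 on the control siRNA arrays and 206 and 203 on the COUP-TFII siRNA arrays. The replicates nearly coincided, the groups did not overlap, and FOXN2 fell (log2 fold change -0.87, SE 0.09, limma adjusted p = 1.84e-04). Its other probe set, at 41.3 and 49.6 on the control siRNA arrays and 44.6 and 64.9 on the COUP-TFII siRNA arrays, did not pass, and for the mean of both the adjusted p was 0.0839. FOXN3, a transcriptional repressor, read 126 and 138 on the control siRNA arrays and 249 and 248 on the COUP-TFII siRNA arrays. FOXN3 rose (log2 fold change 0.83, SE 0.11, limma adjusted p = 8.32e-04), and 3 of its 8 probe sets passed, all higher. One of these went from 119.9 and 127 to 266 and 251, and the dimmest from 59.5 and 59.0 to 111 and 95.7. They lost the call in 3 and 5 of 12 alternatives. For the mean of all 8 probe sets, several of them below the median, the adjusted p was 0.0649.

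The repressors FOXK1 and FOXK2 differed in what their probe sets showed. FOXK1 read 473 and 407 on the control siRNA arrays and 684 and 772 on the COUP-TFII siRNA arrays. It rose (log2 fold change 0.71, SE 0.10, limma adjusted p = 7.15e-04) on 1 of its 4 probe sets. The others lay below the median on every array, except 1 that crossed it between 24.1 and 42.6. The mean of the 4 gave a log2 fold change of 0.14 (limma adjusted p = 0.697), and 1 prior variance an adjusted p of 0.0521. FOXK2 did not pass on its representative, at 383 and 391 on the control siRNA arrays and 363 and 405 on the COUP-TFII siRNA arrays (log2 fold change -0.01, SE 0.09, limma adjusted p = 0.947). Another FOXK2 probe set read 439 and 457 on the control siRNA arrays and 302 and 331 on the COUP-TFII siRNA arrays. This one fell (log2 fold change -0.48, SE 0.08, limma adjusted p = 0.00922), without overlap, 1 of the gene's 7; it lost the call in 6 of 12 alternatives, among them every fit without 1 array. The other 5 did not pass.

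FOXD1, a factor of kidney stroma and retina development, has a single probe set, which read 420.1 and 414 on the control siRNA arrays and 259 and 252 on the COUP-TFII siRNA arrays. The groups were far apart relative to their spread, and FOXD1 fell (log2 fold change -0.67, SE 0.09, limma adjusted p = 5.71e-04), a call that held in all 14 alternatives. FOXQ1, a factor of epithelial differentiation with reported roles in epithelial-mesenchymal transition, read 582 and 603 on the control siRNA arrays and 501 and 476 on the COUP-TFII siRNA arrays. The fall was small (log2 fold change -0.27, SE 0.07, limma adjusted p = 0.0283). The call was lost without any 1 of the 4 arrays (adjusted p 0.0745 to 0.198), and with centring on housekeeping genes the difference was -0.05.

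**Figure D3:**
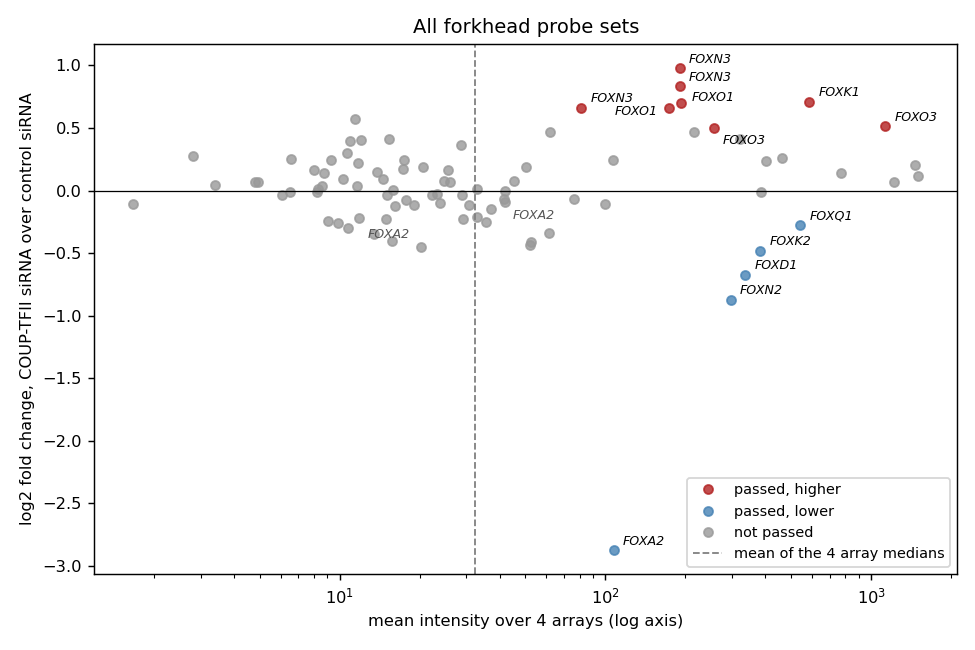
Log2 fold change against mean intensity over 4 arrays (log axis) for the 88 forkhead probe sets, coloured by the limma call, with passing genes and the other FOXA2 probe sets named. The 13 that passed lie to the right of the mean array median (dashed line), and the other FOXA2 probe sets lie near 0.

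Over all 88 probe sets 13 passed, 8 higher and 5 lower, which is 14.8% against 12.2% of all probe sets. No gene had probe sets passing in both directions. Among the 33 above the median on all 4 arrays 12 passed (36.4%, against 26.2% of the 23876 such probe sets in all), and among the other 55 the FOXA2 probe set passed. Fewer of these probe sets were called when 1 array was left out. Such a fit leaves 1 array in a group, and calls over all probe sets fell too.

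The other members above the median did not pass. FOXP1, a repressor with roles in lymphocyte development, read 1533 and 1349.7 on the control siRNA arrays and 1623 and 1502 on the COUP-TFII siRNA arrays, with overlap between groups (log2 fold change 0.12, SE 0.07, limma adjusted p = 0.323). FOXP4 read 386 and 352 on the control siRNA arrays and 473 and 402 on the COUP-TFII siRNA arrays, without overlap (log2 fold change 0.23, SE 0.10, limma adjusted p = 0.146). None of the 22 probe sets of the FOXP genes passed in limma, and 2 had an unadjusted p under 0.05. FOXJ3, a factor of muscle and germ cells, had log2 fold change 0.06, FOXJ2 0.25 and FOXL1, a mesenchymal factor of the gut, -0.07. The 13 members below the median on every array had log2 fold changes from -0.40 to 0.39 with SE of 0.22 to 0.33, 8 positive and 5 negative. In limma 0 of these passed and 0 had an unadjusted p under 0.05; the SE of the 15 above the median was 0.06 to 0.19, so precision was lower among the dim ones.

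Genes known to act with forkhead factors were read from lists of unequal length. Of 28 measured FOXO target genes 12 rose and 1 fell (46.4% called against 23.1% of all genes), with a median log2 fold change of 0.15 against 0.01; 22 of the 28 lay above the median on all 4 arrays, and 59.1% of these were called against 36.9% of all such genes. CDKN1A, the cell cycle inhibitor p21, read 793 and 878 on the control siRNA arrays and 1979 and 1941 on the COUP-TFII siRNA arrays and rose (log2 fold change 1.22, SE 0.07, limma adjusted p = 5.15e-06). FBXO32, the atrophy ubiquitin ligase, rose from 952 and 959 to 1793 and 1629.9 (log2 fold change 0.83, SE 0.06, limma adjusted p = 3.21e-05). SOD2, the mitochondrial superoxide dismutase, also rose (log2 fold change 0.81, SE 0.12, limma adjusted p = 0.00109). CDKN1B, the inhibitor p27 and a classical FOXO target, moved the other way, from 1208 and 1079 to 747 and 659 (log2 fold change -0.69, SE 0.08, limma adjusted p = 3.91e-04). These 4 calls held in all 14 alternatives. Fewer genes of the list were called with 1 array left out, and fewer of all genes too. Many of these genes answer to other factors too, and BBC3 was not analysed here.

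Among 22 AKT and 14-3-3 regulators of FOXO, 4 rose and 3 fell, with a median of 0.01. The share called was 31.8% against 23.1% of all genes, and 33.3% against 36.9% for the 21 above the median on all 4 arrays. With housekeeping centring 14 were higher and 1 lower, beside 6335 and 1130 of all genes. SGK1, a kinase that phosphorylates FOXO3, rose from 551 and 639 to 1266 and 1135 (log2 fold change 0.996, SE 0.09, limma adjusted p = 6.35e-05). The receptor IGF1R rose (log2 fold change 0.88, SE 0.11, limma adjusted p = 5.68e-04). The acetyltransferase EP300 rose (log2 fold change 0.44, SE 0.12, limma adjusted p = 0.0326) and the 14-3-3 protein YWHAH fell (log2 fold change -0.41, SE 0.07, limma adjusted p = 0.00242); without 1 array their adjusted p ran from 0.0419 to 0.269 and from 0.0260 to 0.0621.

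The lists of FOXA partners and targets differed in their share of calls, set against 23.1% of all genes. It was 8.33% of 12 endodermal partners, 11.8% of 17 endodermal targets and 42.9% of 7 prostate FOXA1 partners and targets. Above the median on all 4 arrays lay 4, 4 and 5 of them, in that order. Of these 25%, 50% and 60% were called, against 36.9% of all such genes. Of the 12 endodermal partners GATA6, a zinc finger factor of endoderm, rose (log2 fold change 0.93, SE 0.09, limma adjusted p = 1.25e-04). ONECUT1, ONECUT2, GATA4, SOX17, PDX1, NKX2-1, CDX2, PROX1, CEBPA, CEBPB and NR5A2 did not pass, with log2 fold changes from -0.41 to 0.41. Of 17 endodermal FOXA targets 2 fell and none rose, with a median of -0.09; 10 of the 17 lay below the median on every array. AGR2, a secretory-pathway disulfide isomerase, read 8001 and 7907 on the control siRNA arrays and 4201 and 3812 on the COUP-TFII siRNA arrays and fell (log2 fold change -0.99, SE 0.05, limma adjusted p = 5.29e-06). SERPINA1, the antitrypsin gene, fell (log2 fold change -0.83, SE 0.15, limma adjusted p = 0.00337), with adjusted p of 0.0427 to 0.0642 without 1 array. Of 7 prostate FOXA1 partners and targets 2 rose and 1 fell. The protease TMPRSS2 rose from 132 and 157 to 391 and 392 (log2 fold change 1.35, SE 0.11, limma adjusted p = 4.50e-05). The homeobox factor HOXB13 rose (log2 fold change 0.58, SE 0.09, limma adjusted p = 0.00165). Its call was lost in 3 of 14 alternatives, and without 1 array its log2 fold change ran from 0.47 to 0.69. The cochaperone FKBP5 fell (log2 fold change -0.89, SE 0.12, limma adjusted p = 6.26e-04). Only 1 of the 3 FKBP5 probe sets passed, and its call was lost in 1 of 14 alternatives (limma adjusted p = 0.0852). GATA2 (log2 fold change 0.26, SE 0.09, limma adjusted p = 0.0773) and GRHL2 (log2 fold change -0.03, SE 0.07, limma adjusted p = 0.852) did not pass, and KLK3 and KLK2 lay below the median.

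**Figure D4:**
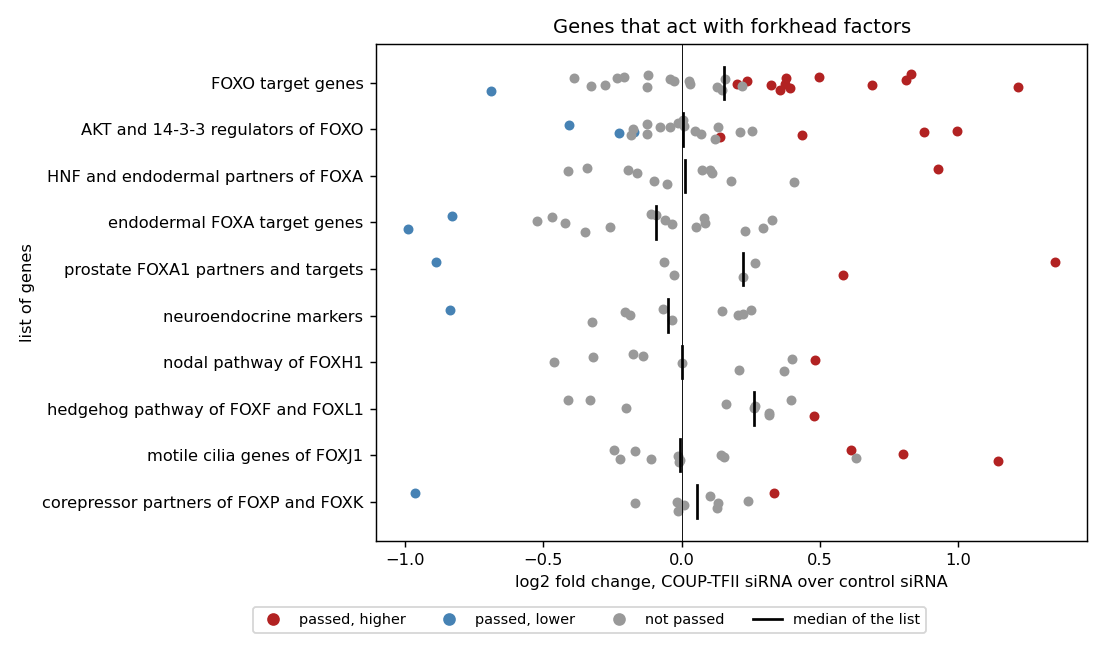
Log2 fold change of COUP-TFII siRNA over control siRNA for each measured gene (points, coloured by the limma call) in 10 lists of genes that act with forkhead factors, with the median of each list as a bar. The FOXO targets, with 12 higher and 1 lower of 28, have a median of 0.15.

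In the remaining lists the share called was 23.1% of 13 motile cilia genes, 20% of 10 corepressors and 11.1% of 9 nodal genes. It was 10% each of 10 hedgehog genes and 10 neuroendocrine markers, beside the same 23.1% of all genes. Above the median on all 4 arrays lay 3, 10, 4, 5 and 2 of these, in that order. Called among them were 33.3%, 20%, 25%, 20% and 0%, against 36.9% of all such genes. Only 1 of the 3 cilia genes called was among them. Of the corepressor partners of FOXP and FOXK, CTBP2, a corepressor, fell from 1516 and 1519 to 799 and 743 (log2 fold change -0.96, SE 0.06, limma adjusted p = 1.23e-05), and SIN3B rose (log2 fold change 0.33, SE 0.10, limma adjusted p = 0.0394). Of 9 nodal pathway genes SMAD3, a signal transducer of TGF-beta, rose (log2 fold change 0.48, SE 0.06, limma adjusted p = 4.88e-04). Only 1 of the 4 SMAD3 probe sets passed, and its call was lost in 2 of 14 alternatives (limma adjusted p up to 0.222). Of 10 hedgehog pathway genes the effector GLI3 rose (log2 fold change 0.48, SE 0.15, limma adjusted p = 0.0486). Of 13 motile cilia genes RSPH1 (log2 fold change 1.14, SE 0.26, limma adjusted p = 0.012), RFX3 (log2 fold change 0.80, SE 0.22, limma adjusted p = 0.0316) and DNAH5 (log2 fold change 0.61, SE 0.15, limma adjusted p = 0.0162) rose, while FOXJ1, which directs that program, crossed the median between arrays at 26.8 and 53.9 on the control siRNA arrays and 28.5 and 38.9 on the COUP-TFII siRNA arrays. Of 10 neuroendocrine markers the Notch ligand DLL3 fell (log2 fold change -0.84, SE 0.24, limma adjusted p = 0.0313), with values below the median on all 4 arrays. With 1 array left out, the adjusted p of SIN3B, DNAH5, DLL3 and RFX3 stayed above the threshold (0.0842 to 0.236, 0.0743 to 0.144, 0.0604 to 0.190 and 0.0510 to 0.209). That of GLI3 ran from 0.0484 to 0.289 and that of RSPH1 from 0.0188 to 0.172.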

How the data were processed

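Per the labels' protocols, Trizol-extracted RNA was amplified and biotin-labelled by 3′ in vitro transcription and read on Affymetrix arrays of 1 colour. The values deposited by the authors are probe set intensities on a linear scale; how they were summarised and normalised is not given in the sources used here. The number of arrays limits the precision.

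Values were used as log2(intensity + 16), without further scaling; fold changes on this scale understate changes of dim genes. Current symbols came from the RefSeq table of GRCh38.p14 by Entrez number, which matched 41037 of 41091 probe sets with 1 gene. Each gene was read by whichever of these had the greatest mean log2 value, passing over _x_at sets where another existed. Groups were compared with limma 3.58.1 in R 4.3.3 (lmFit, eBayes with an intensity trend), with Benjamini-Hochberg adjustment over 19775 genes, and again over 54613 probe sets without the 62 controls. The code was tested on simulated data. Figures were drawn with matplotlib 3.10.9.

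Members and lists were chosen with earlier results of these data known. Members that passed, or had a passing probe set, are named with their values; of each list, up to 4 passing genes with the largest change are named, and all genes of the endodermal partner and prostate FOXA1 lists. Alternatives were the replicate block, 3 scalings, pseudocounts of 1 and 64, dim features left out, 1 prior variance, other choices of probe set, thresholds of 0.01 and 0.1, and each array left out. The target's own transcript and some members of the gene lists are not reported here.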

Additional observations from a re-analysis of the deposited data

How the results depend on the processing

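The 4563 genes and 6648 probe sets past the threshold became 7465 and 13553 with centring on housekeeping genes, 1589 and 527 with 1 prior variance, and 2781 and 3400 at a threshold of 0.01; leaving dim features out gave 10042 probe sets. Without 1 array the counts were 1792 to 2362 genes and 752 to 2382 probe sets. The 8 forkhead genes became 13 with housekeeping centring and 5 with 1 prior variance; without 1 array 7 were called each time, FOXQ1 being lost. The 13 forkhead probe sets became 22 with housekeeping centring, 1 with 1 prior variance and 0 to 5 without 1 array. Housekeeping centring moved the all-gene median (log2) from 0.01 to 0.24, and the share of calls that were higher from 55.3% to 84.9% (forkhead genes 50% to 76.9%). The count of 15 forkhead genes above the median became 14 against the median of the gene representatives. The labels do not say whether replicate numbers pair the arrays. Deviations of arrays with the same number correlated at 0.010 over probe sets, which cannot decide it. The replicate block gave 10 forkhead genes, FOXA1 and FOXO4 being added, and 5132 genes. DLL3 had 0.29 with _x_at probe sets allowed, the opposite direction, on another probe set. With 2 arrays per group there were 2 residual degrees of freedom per gene, and dim probe sets had larger SE.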

Other observations

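FOXM1, the forkhead factor of mitosis left out of the family above, read 425 and 422 with control siRNA and 239.5 and 299 with COUP-TFII siRNA, without overlap (log2 fold change -0.63, SE 0.11, limma adjusted p = 0.00334). Another 3 probe sets are shared by FOXO3 and FOXO3B, a near-identical copy, so their source cannot be told apart. The brightest read 92.4 and 84.4 with control siRNA and 132 and 125.6 with COUP-TFII siRNA (log2 fold change 0.47, limma adjusted p = 0.0608). The other shared probe sets had log2 fold changes of 0.04 and -0.04. Of 8 noncoding genes named after forkhead genes, 0 passed in limma and 1 had an unadjusted p under 0.05; adjusted p ran from 0.148 for FOXN3-AS2 to 0.983 for FOXD2-AS1.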
